A study of Mus musculus with 10 samples.

Results

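The genes described here are 8 outputs of the circadian clock, namely Dbp, Tef, Hlf, Nfil3, Bhlhe40, Bhlhe41, Wee1, and Usp2, taken by symbol from the 55426 genes of an RNA-Seq table of the mouse thoracic aorta. PRDM16, a zinc finger transcription factor, was deleted from vascular smooth muscle, and the question was whether the expression of these outputs differed between Prdm16SMKO mice and controls. Controls were Prdm16f/f mice, in which both alleles are floxed, without Cre, and Prdm16SMKO mice carried Prdm16f/f together with SMMHC-CreERT2, with 3 aortas in each group. SMMHC-CreERT2 is a Cre recombinase driven by the smooth muscle Myh11 promoter and switched on by tamoxifen, so the floxed alleles stay intact in the other cells of the aorta. The methods of the study give a C57BL/6J background and use this Cre for male mice, with tamoxifen gavage at 8 weeks of age for 5 days and then 2 weeks of washout. The age at which these aortas were taken, the clock time of collection, and whether the controls received tamoxifen are not given in the sources used here. A second experiment was anti-Flag ChIP-Seq in wild-type primary vascular fibroblasts. These carried lentiviral Flag-tagged PRDM16 or an empty lentiviral vector (48 hours of infection, then 1 week in puromycin at 2 μg/mL), with 1 anti-Flag library each, so that peak values have no replicates and no test was made on them.

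In the circadian clock, CLOCK or NPAS2 pairs with BMAL1 (encoded by Arntl) and activates transcription at E-boxes, with the core sequence CACGTG, in genes that include the clock's own inhibitors and a set of outputs. DBP, TEF, and HLF, the PAR-bZIP factors, are such outputs and activate genes through D-boxes, which NFIL3, also called E4BP4, binds as a repressor. BHLHE40 and BHLHE41, also called DEC1 and DEC2, are repressors that compete at E-boxes. WEE1 is a kinase that holds back entry into mitosis by phosphorylating CDK1, and USP2 is a deubiquitinating enzyme with strongly rhythmic isoforms.

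Prdm16 itself, the targeted gene, was at 56.1, 47.6, and 40.3 TPM in controls and 23.3, 33.3, and 23.4 TPM in Prdm16SMKO aortas, with no overlap (−0.85 on the log2 scale, limma adjusted P = 0.072, or 0.024 after rescaling by median ratio). All 8 clock output genes passed the filter on low values, a mean of at least 0.5 TPM (transcripts per 1000000 transcripts, scaled for gene length) over the 6 aortas. Of these, 7 had higher and 1, Nfil3, had lower mean TPM in Prdm16SMKO aortas, and Bhlhe40 was the member that passed the threshold of an adjusted P value of 0.05 (limma on log2[TPM + 0.1], Benjamini-Hochberg over the 15668 genes tested). In the same fit, 1.07% of all genes tested passed, with 0.389% higher and 0.683% lower. The median log2 fold change was 0.57 over the 8 members and −0.12 over all genes tested. The 2 groups did not overlap for 4 members that were higher in Prdm16SMKO aortas (Tef, Bhlhe40, Bhlhe41, and Wee1), against 4.08% of all genes tested, and for 1 that was lower (Nfil3), against 14.9% (either direction, 19%). A scaling of the aortas to each other by median ratio, which centers the bulk of the genes, raised the members called to 6, all higher. In that fit 2.64% of all genes tested passed. With an aorta left out as well, 1 to 5 members were called, with 143 to 213 genes in all. The rescaled values are given after the members' own. The study's own list of differentially expressed genes with PRDM16 binding at their promoters gives Tef, Hlf, Bhlhe40, Bhlhe41, and Wee1 as upregulated. Nfil3 is not on that list. The test behind it is not given in the sources used here, and the calls by limma on TPM differ from it.

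In whole tissue, fewer cells of a type and less RNA per cell cannot be told apart. The smooth muscle markers Myh11, Acta2, Tagln, Cnn1, Smtn, and Des were present throughout, with none at 0. Their summed TPM was 20350 to 23640 in controls and 13560 to 17470 in Prdm16SMKO aortas without overlap. Acta2 was the most abundant of them, with means of 11569 TPM in controls and 7512 TPM in Prdm16SMKO aortas, and weighs most in this sum. By gene, Acta2, Tagln, and Cnn1 lay lower without overlap, Myh11 and Smtn overlapped, and Des lay higher without overlap. By limma, none of these 6 passed the test on TPM as deposited. Of the 6, 4 had an unadjusted P under 0.05, against 1986 of the 15668 genes tested. After rescaling by median ratio 1, Des, was called, higher. The part of cell composition in the members' values was not tested.

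**Figure D1:**
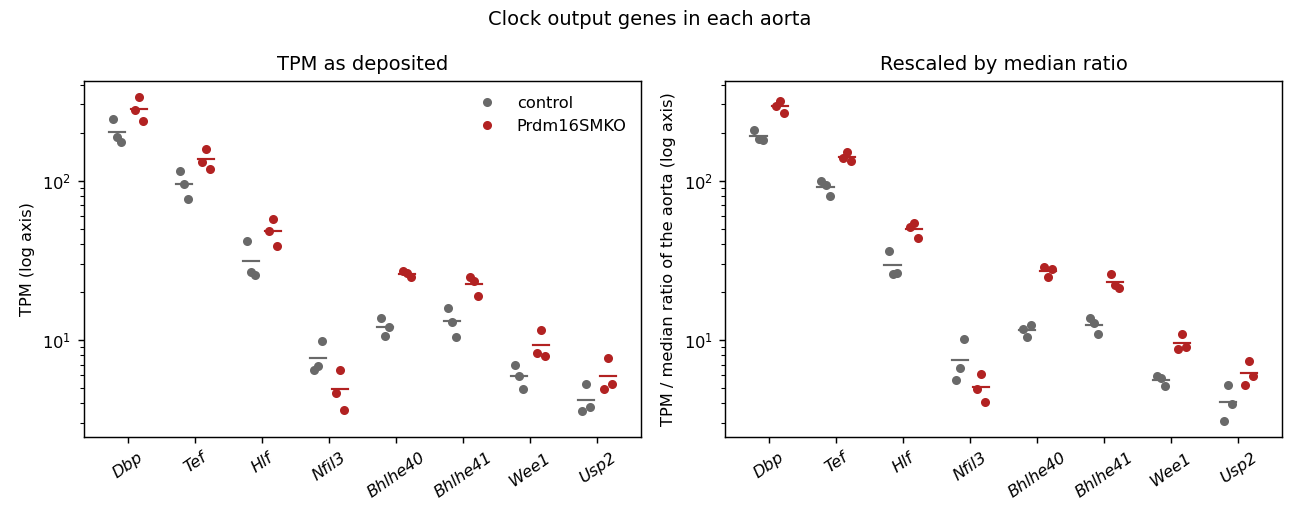
TPM of the 8 clock output genes on a log axis, as deposited (left) and divided by the median ratio of the aorta (right), with 1 point per aorta (replicates 1 to 3 from left to right within a group) and a line at the mean of each group of 3. Dbp is the most abundant and Nfil3 is the member with the lower mean in Prdm16SMKO aortas on both scales, and after rescaling the groups stand apart for Dbp, Tef, Hlf, Bhlhe40, Bhlhe41, and Wee1.

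Dbp (ENSMUSG00000059824, chr7:45705088-45710203, + strand, GRCm38), a PAR-bZIP activator and one of the most strongly rhythmic transcripts known in peripheral tissues, was the most abundant member, with a control mean above that of 97.2% of the genes tested. Its TPM was 242, 186, and 174 in control replicates 1 to 3 and 278, 333, and 236 in Prdm16SMKO replicates 1 to 3. The lowest Prdm16SMKO aorta lay just below the highest control aorta, so the groups overlapped. The means were 201 ± 36.2 and 282 ± 48.7 TPM (SD, n = 3 each), and the log2 fold change of 0.49 (SE 0.16, 95% interval 0.12 to 0.87) did not pass the threshold (adjusted P = 0.25 by limma). No PRDM16 peak lay in Dbp or within 50 kb of it, and the nearest was centered 78.8 kb downstream of its transcription start site (TSS), at a fold enrichment of 4.57. Dbp overlaps Sphk2, a protein-coding gene on the other strand, by 737 bp, and Sphk2 measured between 11.1 and 19.3 TPM in the 6 aortas, far below Dbp.

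Tef (ENSMUSG00000022389, chr15:81802421-81826863, + strand), the second PAR-bZIP activator, followed at 115, 95.04, and 77.02 TPM in controls and 131, 159, and 118 TPM in Prdm16SMKO aortas. All 3 Prdm16SMKO aortas lay above all 3 controls, with a narrow gap between control replicate 1 and Prdm16SMKO replicate 3. The means were 95.8 ± 19.1 and 136 ± 20.6 TPM, and the log2 fold change was 0.51 (SE 0.17, 95% interval 0.13 to 0.90, adjusted P = 0.24 by limma). A PRDM16 peak at chr15:81802833-81803137 was centered 312 bp downstream of the first Tef TSS, in an intron. It was among the weakest of the 11271 peaks, with a fold enrichment of 3.03 and a −log10 q of 1.54, and 1.499% of peaks had a lower fold enrichment. Its 3′ part, shown because it holds the E-box of this peak (in capitals), reads on the + strand, chr15:81802937-81803137:
Tef intronic peak: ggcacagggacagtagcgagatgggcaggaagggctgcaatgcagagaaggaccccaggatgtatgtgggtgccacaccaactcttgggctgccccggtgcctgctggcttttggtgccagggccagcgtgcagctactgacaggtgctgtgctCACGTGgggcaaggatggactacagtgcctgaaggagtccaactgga

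Hlf (ENSMUSG00000003949, chr11:90336536-90390895, − strand), the third PAR-bZIP activator, measured 41.9, 26.6, and 25.5 TPM in controls and 48.2, 57.0, and 38.9 TPM in Prdm16SMKO aortas. Control replicate 1 stood well above the other controls and exceeded Prdm16SMKO replicate 3, so the groups overlapped. The means were 31.3 ± 9.19 and 48.0 ± 9.06 TPM, with a log2 fold change of 0.63 (SE 0.21, 95% interval 0.15 to 1.12, adjusted P = 0.25 by limma). Hlf held a promoter peak, meaning a peak centered within 2 kb of a TSS, at chr11:90389975-90390298 in an intron 780 bp past the start site, with a fold enrichment of 4.92, which 39.1% of peaks fell below. A second and weaker peak lay 35.2 kb into the gene, with a fold enrichment of 3.03. The stretch at the summit of the first peak is given for contrast with the others, since it holds neither an E-box nor a D-box (− strand, chr11:90390024-90390144):
Hlf intronic peak: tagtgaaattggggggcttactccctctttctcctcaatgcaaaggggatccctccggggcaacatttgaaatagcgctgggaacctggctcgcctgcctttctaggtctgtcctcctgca

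Dbp made up 60.02% to 62.92% of the summed TPM of the 3 PAR-bZIP genes in every aorta, with means of 61.3% ± 1.36 in controls and 60.5% ± 0.419 in Prdm16SMKO aortas (P = 0.60, 2-sided exact permutation test, n = 3 each). This share lay in a narrow range while the levels themselves differed from aorta to aorta. Within the groups, Dbp, Tef, and Hlf ranked the aortas alike, with control replicate 1 highest and 3 lowest, and with Prdm16SMKO replicate 2 highest and 3 lowest, and Wee1 gave the same order. The median ratio of each aorta, a scale factor taken over all genes, followed that order too, at 1.16, 1.02, and 0.965 in controls and 0.949, 1.05, and 0.888 in Prdm16SMKO aortas. The part of this scaling in the spread of these genes was not tested beyond the rescaled values given here.

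Nfil3 (ENSMUSG00000056749, chr13:52967209-52981073, − strand), the D-box repressor that opposes the PAR-bZIP factors, went the other way. It measured 6.47, 6.84, and 9.78 TPM in controls and 4.65, 6.44, and 3.64 TPM in Prdm16SMKO aortas. Each Prdm16SMKO aorta lay below each control, and the highest of them was almost level with the lowest control. The means were 7.70 ± 1.81 and 4.91 ± 1.42 TPM, and the log2 fold change of −0.65 (SE 0.25, 95% interval −1.22 to −0.09) did not pass the threshold (adjusted P = 0.32 by limma). The groups overlapped once the aortas were rescaled by median ratio (−0.53 on the log2 scale, limma adjusted P = 0.37).

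Nfil3 carried PRDM16 peaks on both sides of its TSS and another inside the gene. One, at chr13:52980574-52981034, was centered at +235 bp with a fold enrichment of 4.92, and its summit fell in the 5′ UTR. It was the one member peak centered within 2 kb of a TSS that held a D-box, searched as TTANGTAA on both strands, which lay 330 bp downstream of the TSS, against 1.15% of all whole promoter peaks. The peak in the gene body lay 2.46 kb downstream, with a fold enrichment of 5.29. The peak upstream, at chr13:52981363-52981953, was centered at −619 bp relative to the TSS and had a fold enrichment of 5.98 and a −log10 q of 7.16, above 66.4% of peaks by fold enrichment. Its distal part around the summit is shown because it holds the E-box, in capitals, at −698 bp relative to the TSS (− strand, chr13:52981678-52981953):
Nfil3 upstream peak: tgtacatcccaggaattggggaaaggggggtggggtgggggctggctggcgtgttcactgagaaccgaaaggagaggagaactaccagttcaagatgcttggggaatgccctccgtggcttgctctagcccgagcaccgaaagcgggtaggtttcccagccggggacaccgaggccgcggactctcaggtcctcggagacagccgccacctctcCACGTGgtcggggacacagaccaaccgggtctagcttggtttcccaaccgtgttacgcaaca

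The balance of activators to repressor can be read within each aorta, where no scaling between aortas enters. The ratio of the summed TPM of Dbp, Tef, and Hlf to that of Nfil3 was 61.7, 45.0, and 28.3 in controls and 98.3, 85.2, and 108 in Prdm16SMKO aortas. All Prdm16SMKO aortas lay above all controls, whose own values were spread widely. The means were 45.0 ± 16.7 and 97.1 ± 11.4 (SD, n = 3 each), a difference of 1.17 on the log2 scale (P = 0.1, 2-sided exact permutation test, the smallest P that 3 against 3 allows). Leaving out each aorta in turn gave log2 differences of 0.88 to 1.44. Leaving out an aorta cannot turn the sign of this difference, since the groups do not overlap. These ratios were chosen after the values of the genes had been seen. This ratio sets Dbp, Tef, and Hlf, seen higher on average, over Nfil3, seen lower. Its P value and range therefore add no support beyond the values of these genes.

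**Figure D2:**
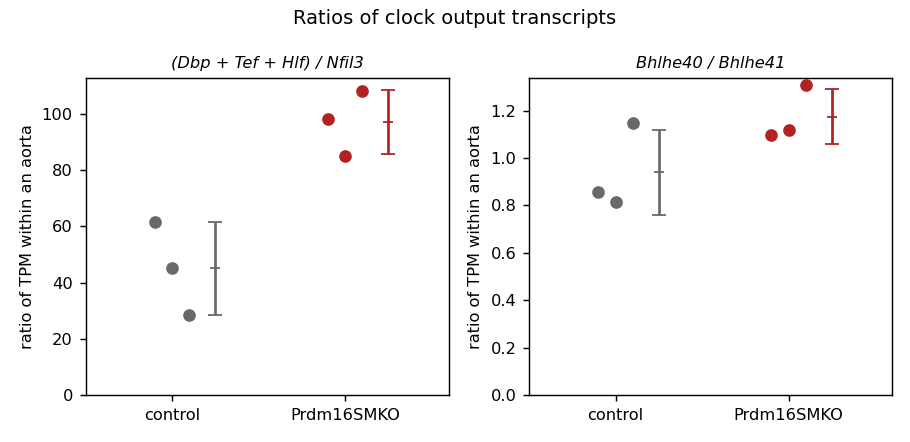
Ratio of the summed TPM of Dbp, Tef, and Hlf to Nfil3 (left) and of Bhlhe40 to Bhlhe41 (right) within each aorta, with 1 point per aorta and the mean ± SD of 3 aortas beside the points. The first ratio runs from 28.3 to 61.7 in controls and from 85.2 to 108 in Prdm16SMKO aortas, and the second overlaps between the groups.

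Bhlhe40 (ENSMUSG00000030103, chr6:108660629-108666925, + strand), which encodes the E-box repressor DEC1, showed the clearest difference among the members. Its TPM was 13.69, 10.58, and 12.01 in controls and 27.2, 26.2, and 24.7 in Prdm16SMKO aortas. The 2 groups lay far apart compared with the spread within them, with means of 12.1 ± 1.56 and 26.0 ± 1.26 TPM, a ratio of 2.15. The log2 fold change was 1.11 (SE 0.14, 95% interval 0.79 to 1.42, adjusted P = 0.0089 by limma, higher in 3 of 3 aortas). Leaving out each aorta in turn gave log2 fold changes of 1.01 to 1.2, with adjusted P values of 0.0185 to 0.0454 by limma. The call was lost in the limma fit without a mean-variance trend (adjusted P = 0.062), where no member and 48 genes in all passed. In that fit 6 members had an unadjusted P under 0.05, against 1753 of the 15668 genes tested.

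Bhlhe40 had PRDM16 peaks upstream, at its start, and at its 3′ end. The upstream peak, at chr6:108659170-108659449, was centered at −1.32 kb relative to the TSS at a fold enrichment of 5.98, and held an E-box at −1183 bp relative to the TSS. The second was 1020 bp long, at chr6:108660683-108661702, and was centered in a coding exon 564 bp past the start site. With a fold enrichment of 6.79 and a −log10 q of 11.9, it stood above 81.6% of peaks. The third lay in the 3′ UTR, 4.74 kb from the TSS, with a fold enrichment of 3.87. An antisense gene that overlaps Bhlhe40 by 306 bp was listed at 0 to 0.08 TPM.

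By a fixed measure of likeness, the root mean square difference over the 6 aortas of log2 values relative to the control mean, 22 genes lay within 0.2 of Bhlhe40. The 3 nearest were Lsamp (0.066), Plat (0.067), and Adamts14 (0.094). Plat, which encodes tissue plasminogen activator, measured 30.3, 26.1, and 30.2 TPM in controls and 62.6, 63.9, and 61.4 TPM in Prdm16SMKO aortas and passed the test (1.12 on the log2 scale, SE 0.12, limma adjusted P = 0.0039). Lsamp (adjusted P = 0.12 by limma) and Adamts14 (adjusted P = 0.065 by limma) did not. The genes were picked for values like those of Bhlhe40, so a similar fold change was fixed by the choice. How many genes lie as near to other genes was not counted.

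Bhlhe41 (ENSMUSG00000030256, chr6:145858243-145865558, − strand), the paralog that encodes DEC2, measured 15.97, 12.96, and 10.47 TPM in controls and 24.8, 23.4, and 18.9 TPM in Prdm16SMKO aortas. Every Prdm16SMKO aorta lay above every control. The means were 13.1 ± 2.75 and 22.3 ± 3.09 TPM, and the log2 fold change of 0.77 (SE 0.19, 95% interval 0.35 to 1.19) stayed above the threshold of the adjusted P value (0.10 by limma). A gene of uncertain status on the other strand, Gm43909, overlaps it by 1876 bp and measured 3.01 to 5.74 TPM, and how the counting used strand is not given in the sources used here.

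Bhlhe41 carried the strongest PRDM16 peak near any member, 1384 bp long at chr6:145862730-145864113. It had a fold enrichment of 9.84, above 96.5% of peaks, and a −log10 q of 18.1, over exon sequence that runs from coding into the 3′ UTR. Its center lay 1998 bp downstream of the TSS, just inside the 2 kb limit, and it held an E-box 1618 bp downstream of the TSS. An upstream peak of 1214 bp, at chr6:145865570-145866783, was centered at −757 bp relative to the TSS and had a fold enrichment of 5.89 and a −log10 q of 7.75. The 3 stretches below, on the − strand, are the distal end of the upstream peak (chr6:145866683-145866783), the stretch at its summit (chr6:145866141-145866261), and the part of the promoter next to the TSS that lies outside annotated exons (chr6:145865559-145865670), and show the E-boxes, in capitals, at the distal end of this peak and across its proximal edge, and none at its summit.
Bhlhe41 distal end: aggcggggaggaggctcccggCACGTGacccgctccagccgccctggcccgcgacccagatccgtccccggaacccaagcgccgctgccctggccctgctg
Bhlhe41 summit: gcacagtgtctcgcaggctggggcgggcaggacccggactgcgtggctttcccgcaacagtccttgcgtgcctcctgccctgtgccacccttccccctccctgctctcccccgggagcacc
Bhlhe41 promoter: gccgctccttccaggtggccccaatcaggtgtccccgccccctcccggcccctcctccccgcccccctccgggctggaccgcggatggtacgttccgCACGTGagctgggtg

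The ratio of Bhlhe40 to Bhlhe41 was 0.857, 0.816, and 1.15 in controls and 1.10, 1.12, and 1.31 in Prdm16SMKO aortas. Control replicate 3 reached the Prdm16SMKO range. The difference was 0.33 on the log2 scale, with overlapping groups (P = 0.30, 2-sided exact permutation test, n = 3 each, smallest possible P 0.1).

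Wee1 (ENSMUSG00000031016, chr7:110122046-110143286, + strand), the mitotic inhibitor kinase, measured 6.93, 5.92, and 4.96 TPM in controls and 8.30, 11.5, and 7.98 TPM in Prdm16SMKO aortas. The groups did not overlap, with means of 5.94 ± 0.985 and 9.27 ± 1.96 TPM, and the log2 fold change was 0.63 (SE 0.20, 95% interval 0.17 to 1.09, adjusted P = 0.23 by limma). A PRDM16 peak at chr7:110122199-110122961 was centered in a coding exon 521 bp past the start site, with a fold enrichment of 6.33, above 73.2% of peaks, and a −log10 q of 8.04. It held an E-box 190 bp downstream of the TSS. An antisense gene covers the length of Wee1 and was listed at 0 in all 6 aortas.

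Usp2 (ENSMUSG00000032010, chr9:44067021-44095627, + strand), the deubiquitinating enzyme, was the least abundant member in controls, at 3.59, 5.29, and 3.80 TPM, against 4.92, 7.74, and 5.28 TPM in Prdm16SMKO aortas. Replicate 2 was the highest of each group, and the groups overlapped. The means were 4.23 ± 0.927 and 5.98 ± 1.53 TPM, and the 95% interval of the log2 fold change of 0.48 (SE 0.24, −0.05 to 1.02, adjusted P = 0.44 by limma) included 0. No PRDM16 peak lay in Usp2, and the nearest was centered 27.0 kb downstream of the last of its 3 TSSs, at a fold enrichment of 4.92. On the other strand, the protein-coding gene Gm49380 overlaps Usp2 by 28607 bp and measured 0 to 0.61 TPM. The antisense gene Gm39325 overlaps Usp2 by 4448 bp and measured 0 to 1.09 TPM. As for Bhlhe41, how the counting used strand is not given in the sources used here.

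In both groups TPM, a per-length scale, ran from Dbp through Tef to Hlf, with ranges that did not overlap. In controls, Bhlhe41 and Bhlhe40 came next with overlapping ranges, and Nfil3, Wee1, and Usp2 followed, with ranges that overlapped from each to the next. In Prdm16SMKO aortas Bhlhe40 stood before Bhlhe41, again with overlapping ranges, and Wee1 was above Usp2 and Nfil3, which overlapped each other.

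After rescaling by median ratio, which brought the median log2 fold change of all genes to 0.0046, Dbp, Tef, Hlf, Bhlhe40, Bhlhe41, and Wee1 passed the threshold, against 2.64% of all genes tested (1.28% higher). Log2 fold changes on this scale were 0.61 for Dbp (SE 0.09, adjusted P = 0.021 by limma), 0.64 for Tef (adjusted P = 0.023), 0.76 for Hlf (adjusted P = 0.049), 1.23 for Bhlhe40 (adjusted P = 0.0028), 0.89 for Bhlhe41 (adjusted P = 0.016), and 0.75 for Wee1 (adjusted P = 0.036). Dbp, for example, became 208, 183, and 180 in controls and 293, 317, and 266 in Prdm16SMKO aortas, so that its groups no longer overlapped. The groups of these 6 genes stood apart after rescaling, against 11% of all genes tested that were higher without overlap. Usp2 (0.60, adjusted P = 0.26 by limma) and Nfil3 did not pass. Quantile normalization called the same 6 members, against 2.5% of all genes tested (1.21% higher and 1.3% lower). The number of calls fell when an aorta was left out, which also leaves fewer aortas for the test. With rescaling, 5 members passed without control replicate 1 (143 genes in all). Without Prdm16SMKO replicate 3, 3 members passed (Dbp, Bhlhe40, and Bhlhe41, with 213 genes in all). Bhlhe40 alone passed when any of the other 4 aortas was left out (154 to 198 genes in all). None of the 48 log2 fold changes of members in these refits changed sign. For the 6 members whose groups stood apart after rescaling, leaving out an aorta leaves little room for such a change.

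**Figure D3:**
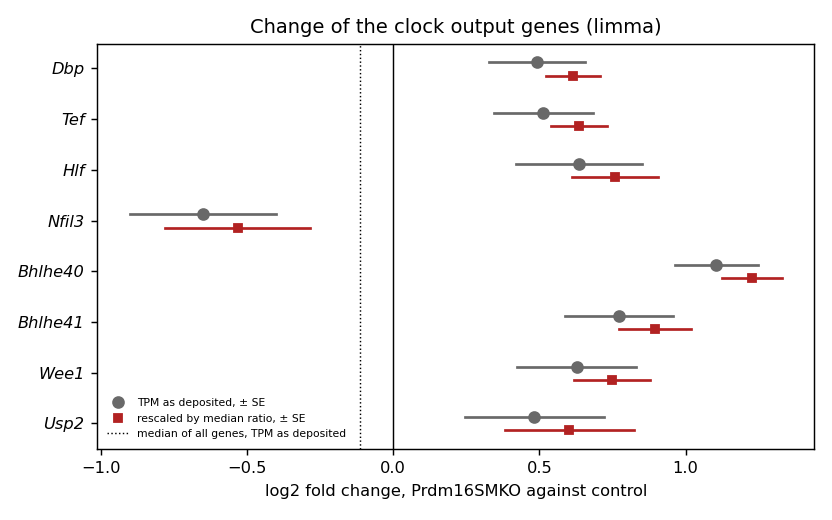
Log2 fold change of the 8 clock output genes in Prdm16SMKO against control aortas (limma, n = 3 each), with bars of ± SE, for TPM as deposited (circles) and rescaled by median ratio (squares). The dotted line at −0.12 is the median of all genes in TPM as deposited, 7 genes lie to the right of 0 and Nfil3 to the left on both scales, and Bhlhe40 lies farthest from 0.

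The clock genes upstream of these outputs moved in both directions. Of 21 core clock genes outside the members, 20 were tested, and 2 rose and 1 fell (limma, adjusted P under 0.05), with a median log2 fold change of 0.0035. After rescaling by median ratio 3 were called higher, with Nr1d2 added (adjusted P = 0.047 by limma), and 1 lower. In the fit without a mean-variance trend 0 of the 20 passed and 8 had an unadjusted P under 0.05, against 1753 of the 15668 genes tested. Those that rose were the inhibitors Cry1 (1.64 on the log2 scale, limma adjusted P = 0.012) and Ciart (1.79, adjusted P = 0.020 by limma), and the one that fell was Npas2, the partner of BMAL1 (−1.94, adjusted P = 0.0079 by limma). Among those not called, Per1 and Per2 lay higher without overlap, and Clock, Arntl, Btrc, and Timeless lay lower without overlap. With the called genes this made 4 of 20 higher and 5 of 20 lower, against 4.08% and 14.9% of all genes tested. Arntl measured 2.71, 1.70, and 2.18 TPM in controls and 0.77, 0.53, and 0.62 TPM in Prdm16SMKO aortas (adjusted P = 0.072 by limma). The study's own list of differentially expressed genes with PRDM16 binding at their promoters gives Npas2 and Arntl as downregulated. It gives Cry1, Per2, Nr1d2, and Csnk1e as upregulated. Clock and Btrc are not on it, though both had a promoter peak here. Of the E-box activators, Npas2, Clock, and Arntl lay lower without overlap, with Npas2 alone called, and Arntl2 overlapped between the groups (adjusted P = 0.78 by limma). In the same aortas, whose time of collection is not given, 7 of the 8 members had higher means. How the activators and the members are related here was not tested.

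Lists of genes downstream of the members or beside them held no call by limma on TPM as deposited. Of 14 other clock-output genes of peripheral tissues, all tested, 6 had an unadjusted P under 0.05. Over all 15668 genes tested, 1986 did. After rescaling by median ratio 2 of the 14 were called higher and 1 lower, against 1.28% and 1.36% of all genes tested. Tsc22d3, Tspan4, and Coq10b lay higher and Por and Fmo2 lower without overlap. Of all genes tested, 4.08% lay higher and 14.9% lower without overlap, so the 2 lower genes of 14 were near that share. The median log2 fold change was −0.09, against −0.12 over all genes tested. Of 4 PAR-bZIP target genes known from liver, 3 were tested, of which 2 had an unadjusted P under 0.05 and, after rescaling, 1 (Por) was called lower. These 2, Por and Alas1, lay lower without overlap, as did 14.9% of all genes tested. The other, Pdxk, the kinase that makes active vitamin B6, measured 11.82, 10.44, and 8.51 TPM in controls and 12.02, 13.74, and 11.5 TPM in Prdm16SMKO aortas, with overlap and a difference in the other direction (0.28 on the log2 scale, limma adjusted P = 0.52, or 0.090 after rescaling). Por, which encodes cytochrome P450 oxidoreductase, measured 127, 130, and 96.8 TPM in controls and 75.8, 83.2, and 69.0 TPM in Prdm16SMKO aortas (−0.63 on the log2 scale, limma adjusted P = 0.089). Alas1, the first enzyme of heme synthesis, measured 37.2, 47.5, and 31.2 TPM in controls and 25.3, 28.2, and 29.2 TPM in Prdm16SMKO aortas (−0.47, adjusted P = 0.27 by limma). Of the 4 related C/EBP factors, 0 had an unadjusted P under 0.05, with a median log2 fold change of −0.13. Among 8 mitotic partners of WEE1, 4 were expressed highly enough to be tested and 1, Cdc25b, had an unadjusted P under 0.05, with lower values and no overlap. Cdk1, the WEE1 substrate, was at 0.23 to 1.83 TPM.

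PRDM16 peaks were found at the promoters of 6 of the 8 members, in the fibroblasts, against 43.8% of the tested genes with a curated TSS. Such peaks were not particular to the members. They were at 10 of the 14 other clock-output genes, 12 of 21 core clock genes, 3 of 4 C/EBP factors, and 6 of 7 immediate-early genes. Fewer were at PAR-bZIP target genes (0 of 4) and mitotic partners of WEE1 (2 of 8). The number of members was also 6 for windows of 1 kb (42.0% of genes) or 5 kb (45.8%), or when summits replaced centers (43.8%). It fell to 2 (Nfil3 and Bhlhe41) with a window from 1 kb upstream to 100 bp downstream, against 13.98% of genes. Of the 9 promoter peaks, 6 were centered downstream of the TSS, and the upstream peak of Bhlhe40, at −1319 bp, lay beyond the 1 kb limit of that window. With a stricter q of at most 1e-05, 4 members kept one (Nfil3, Bhlhe40, Bhlhe41, and Wee1), against 29.3% of genes. In all, 26 peaks lay in the members or within 50 kb of them, of which 3 were elsewhere in the genes and 14 outside them, and 13 of these 14 were nearer the TSS of another gene. None of the 67 peaks of the empty vector overlapped any of them. Dbp and Usp2, the members without such a peak, had log2 fold changes of 0.49 and 0.48 in the aorta. Those with a peak had 0.51 (Tef), 0.63 (Hlf), 0.63 (Wee1), 0.77 (Bhlhe41), 1.11 (Bhlhe40), and −0.65 (Nfil3). Whether a peak goes with a larger difference was not tested over so few genes.

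**Figure D4:**
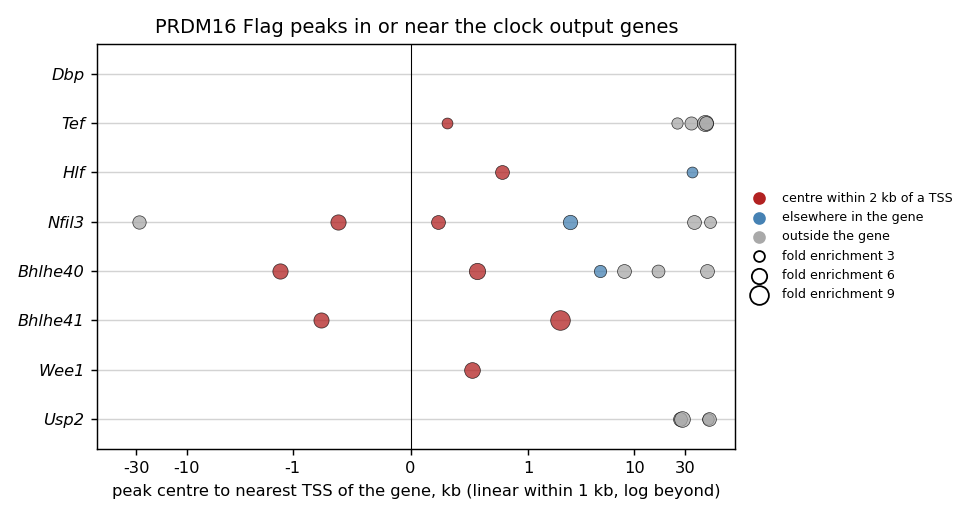
Distance in kb from the nearest TSS of each gene to the center of each PRDM16 Flag peak in or near it, linear within 1 kb and on a log scale beyond, with the area of a point proportional to the fold enrichment and its color giving its place. Peaks centered within 2 kb of a TSS are seen at 6 genes, most of them downstream of the TSS, with the largest at Bhlhe41 (9.84) and none at Dbp or Usp2.

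E-boxes (CACGTG, which reads the same on both strands) were present in the promoter peaks of 5 of these 6 members, all but Hlf. By peak, 6 of 9 held one, against 9.56% of all whole promoter peaks, but the members' peaks, 280 to 1384 bp long, were often longer than the median of 394 bp over all peaks. In the 300 bases around the summit, 3 of 9 held one (Tef, Nfil3, and Bhlhe40), against 5.46% of promoter peaks. The RefSeq promoter table, with 250 bases before and 50 after each start on GRCm38, matched 6 of the 8 members. Of these, Bhlhe41 and both Tef promoters held an E-box and Dbp, Hlf, Nfil3, and Usp2 held none in that window, against 7.15% of all promoters, and no member held a D-box there, against 2.32%. These matches describe letters in a window and not sites that were shown to be bound.

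Among facts of all the libraries, a single gene, CT010467.1, took 20.2% to 28.2% of the TPM of each aorta, and mitochondrial genes took 14.7% to 26.5%. A marker score, the median over a list of log2 values relative to the mean of the 6 aortas, differed by −0.33 (Prdm16SMKO minus control) for the smooth muscle markers (P = 0.20, exact permutation test), and by −0.21 after rescaling by median ratio (P = 0.1, the smallest this test allows). It differed by 0.20 for fibroblast, −0.07 for endothelial, −0.07 for macrophage and leukocyte, −0.27 for brown adipocyte, −0.44 for skeletal muscle, −0.57 for red blood cell, and −0.03 for immediate-early genes, with exact permutation P values of 0.30 to 1, and the endothelial, macrophage and leukocyte, and immediate-early differences were positive after rescaling by median ratio.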

How the data were processed

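RNA-Seq was available from 3 control and 3 Prdm16SMKO thoracic aortas, and ChIP-Seq peak lists from fibroblasts with Flag-tagged PRDM16 or vector. Per the labels, libraries were poly(A) selected. The authors deposited TPM per gene, scaled to the same total in every aorta, and the submitters' processing notes name STAR 2.7.8a and RSEM 1.3.3. TPM keep no read depth, which leaves the depth of each aorta unknown and gives no counting intervals, and zeros can be failed estimates. For ChIP-Seq the authors aligned to GRCm38 with bowtie2 and ran MACS2 at a q of 0.01. The deposited lists give the fold enrichment as a ratio over local background, −log10 p and −log10 q, and an integer score that was not used. The genome size setting was the human one, and the control library is not given in the sources used here. IgG libraries were not analysed here.

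limma 3.58.1 in R 4.3.3 (lmFit, eBayes with trend) was run on log2(TPM + 0.1) for 15668 genes whose mean TPM reached 0.5, without covariates, and fold changes on this scale understate the change of low genes. Median ratios are the median over tested genes of an aorta's value relative to the gene's geometric mean. Peaks were assigned to curated RefSeq TSSs and gene positions are those of GENCODE for GRCm38. Sequences are from RefSeq (promoters) and the GRCm38.p6 genome. Motifs were searched on both strands. Alternatives were other pseudocounts, filters and scalings, a fit without trend, the replicate block, leaving out aortas, protein-coding genes alone, and other promoter windows and q limits. Rescaling together with leaving out an aorta, and leaving out aortas for the ratios, were added after the values were seen. The 8 members and all lists were chosen with earlier results of these data known. Named genes are the members, Prdm16, called list genes, core clock genes without overlap, and the 3 genes most like each called member. Genes beyond this rule (list genes not called, Cdk1, overlapping genes, markers) were named after their values were seen. P values measure the spread between these aortas, which the labels describe as replicates with no statement on animals.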

Additional observations from a re-analysis of the deposited data

How the results depend on the processing

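The number of genes called, 168, was 110 with no filter, 413 after median ratio rescaling, 392 after quantile normalization, 48 without a trend, 291 with protein-coding genes only, and 91 to 141 with an aorta left out. The number of members called, 1, became 6 after either rescaling and 0 without a trend, and stayed 1 with each aorta left out. It was 1 to 5 when median ratio rescaling and leaving out an aorta were combined, with 143 to 213 genes called in all. Core clock genes called fell from 3 to 0 without a trend. Members with a promoter peak were 2 with the window from 1 kb upstream to 100 bp downstream. Marker scores turned positive after median ratio rescaling for endothelial (0.0461), macrophage and leukocyte (0.0467), and immediate-early genes (0.0932). With an aorta left out they ranged from −0.322 to 0.257 for endothelial, −0.24 to 0.299 for macrophage and leukocyte, −0.815 to 0.288 for brown adipocyte, and −0.277 to 0.223 for immediate-early genes, and, without a change of sign, from −1.17 to −0.0637 for red blood cell, −0.772 to −0.0472 for skeletal muscle, 0.0575 to 0.305 for fibroblast, and −0.454 to −0.224 for smooth muscle. The cause of these changes was not tested, apart from the smaller number of genes or aortas in some fits. None of the 120 refits of single members reversed, but many could not. The filters, the fit without trend, the replicate block, and protein-coding genes alone leave a member's log2 fold change as it was. Leaving out an aorta cannot reverse a member whose groups do not overlap. Of the 120, 10 passed the threshold that the deposited scale did not, and 1, Bhlhe40 without a trend, lost it. Same-numbered aortas did not deviate together over the genes tested (correlations of −0.0246, −0.07, and −0.00896). This cannot show whether they were collected or processed as pairs. The replicate block gave 184 genes and 1 member called. Counts per aorta are unknown, so low genes such as Usp2 and Nfil3 carry an unstated counting error, and peaks have no replicate.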
